A study of Mus musculus with 8 samples.

Results

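The expression of 9 genes of postmitotic spinal motor neurons was read from the expression table by symbol: the LIM homeodomain genes Isl1, Isl2, Lhx3 and Lhx4, the homeobox genes Mnx1 and Onecut1, and the cholinergic transmitter genes Chat, Slc18a3 and Slc5a7. Of these 9 genes, 8 had a row among the 36808 genes of the table. No row carried the symbol Slc18a3, so the vesicular acetylcholine transporter was not analysed here. The rule that picked them is a list of names and uses no measured value, but the list was chosen with earlier results of these data known.

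A newborn motor neuron is specified when a ventral progenitor that expresses Olig2 leaves the cell cycle and switches on Isl1, Lhx3 and Mnx1. Isl1 and Lhx3 proteins form a complex with the LIM-binding protein Ldb1 that activates motor neuron genes, and Lhx3 without Isl1 takes part in specifying V2 interneurons. Mnx1 represses interneuron genes in motor neurons. The same complex acts on a group of cholinergic genes: Chat makes acetylcholine, Slc18a3 loads it into vesicles from a gene nested in the Chat locus, and Slc5a7 takes choline back into the terminal. Several of these factors also act outside the spinal cord, Isl1 in heart and pancreas, Mnx1 in pancreas, Lhx3 and Lhx4 in pituitary and Onecut1 in liver.

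RNA-seq was performed on mouse embryonic stem cells (ESCs) and on cells collected at day 5 of directed spinal motor neuron (SMN) differentiation, in which LIF is withdrawn and retinoic acid and a hedgehog agonist are added. The mutant lines carry lesions in Suz12 or Eed, core subunits of Polycomb repressive complex 2 (PRC2), which methylates histone H3 at lysine 27. The comparisons asked how each line expressed motor neuron genes at the end of the same differentiation. Each condition was 1 library, so there is no spread between replicates, no test was possible, and every difference below is between single libraries.

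E14 wild-type cells (129/Ola background) were sequenced as ESCs and at day 5. Suz12GT, a gene-trap allele that makes a truncated SUZ12 fused to beta-galactosidase and keeps part of the PRC2 activity, was on the same 129/Ola background and was used here at day 5, its ESCs not being analysed here. Suz12delta, a truncating allele on C57/BL6, and Eednull, a point mutation on BALB/cR1, were each used as ESCs and at day 5. CJ7 ESCs (129/S) were a second wild type. Background therefore cannot be told apart from genotype for Suz12delta and Eednull. The label of CJ7 places its preparation and sequencing with the library that, by its column name, is the Eednull ESC library. The Eednull ESC library may therefore come from another batch than E14 and than the Eednull day 5 library. Each ESC comparison with E14 is given also against CJ7. ESCs were grown on fibroblast feeders that were removed by brief plating, and day 5 precedes the terminal step of the protocol.

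The values are FPKM (fragments per kilobase of transcript, scaled to the mapped fragments of the library), a level per transcript length, so levels of different genes may be set side by side. The read depth of the libraries is unknown. Ratios are log2 of FPKM + 0.1, a gene is compared where either library has it at 0.1 FPKM or above, and it counts as higher or lower at 2-fold or more on that scale. The ratio understates the difference of genes near 0.1 FPKM. An exact 0 is given as listed at 0, because up to 5 genes per library were listed at 0 there and reached 10 FPKM in each of the others. In a bulk sample, fewer cells of a type and less RNA per cell cannot be told apart.

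The libraries were checked against marker lists before the motor neuron genes were read. Pou5f1, the pluripotency factor, was at 58.1 to 149 FPKM in the 4 ESC libraries and 0.302 to 2.12 FPKM at day 5. The Suz12delta ESC library stood apart: its 12 fibroblast markers summed to 982 FPKM, against 201.0 to 407 FPKM in the other ESC libraries, and its 8 pluripotency markers to 375 FPKM, against 688 to 800 FPKM. At day 5, the summed FPKM of 11 pan-neuronal genes was 586 in E14, 1047 in Suz12GT, 18.4 in Suz12delta and 17.2 in Eednull. The sum was 53.7 to 107 FPKM in the ESC libraries, where Stmn2 was at 39.9 to 75.7 FPKM, so it does not measure neurons alone. The day 5 Suz12delta and Eednull libraries thus carried few transcripts of this list. Tubb3, the neuronal tubulin, was listed at 0 in all 8 libraries and checks nothing. Suz12 itself was at 16.2, 10.3, 11.6 and 17.6 FPKM at day 5 in E14, Suz12GT, Suz12delta and Eednull, and at 6.21 FPKM in Suz12delta ESCs against 41.3 in E14 ESCs. Eed was at 11.1 to 15.9 FPKM at day 5. A level summed over a gene does not show a truncation or a point mutation.

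All 9 genes were found in the RefSeq promoter table (GRCm38.p6), with 10 start sites, since Lhx3 had 2. Over the 250 bases before the start, Isl1 had 33 CpG dinucleotides, Onecut1 31, Lhx3 22 and 11, Mnx1 21, Slc18a3 21, Isl2 16, Lhx4 14, Chat 8 and Slc5a7 1, beside a median of 6 over 32841 promoters. The promoters of Isl1, Lhx4, Chat and Slc5a7 are shown because they span this range and because these genes differ most in what the PRC2 mutant libraries kept of them. They lie at chr13:116309689-116309938 for Isl1, chr1:155742028-155742277 for Lhx4, chr14:32465910-32466159 for Chat and chr17:54299035-54299284 for Slc5a7, and all 4 are on the minus strand. Each sequence is printed 5′ to 3′ along the gene, ending at the base before the start, with CpG in capitals.
Isl1: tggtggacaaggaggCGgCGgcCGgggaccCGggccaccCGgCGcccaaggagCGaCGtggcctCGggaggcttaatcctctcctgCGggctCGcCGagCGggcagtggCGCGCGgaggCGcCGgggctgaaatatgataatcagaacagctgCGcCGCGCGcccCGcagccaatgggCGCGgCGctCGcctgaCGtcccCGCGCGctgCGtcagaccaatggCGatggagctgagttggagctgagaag
Lhx4: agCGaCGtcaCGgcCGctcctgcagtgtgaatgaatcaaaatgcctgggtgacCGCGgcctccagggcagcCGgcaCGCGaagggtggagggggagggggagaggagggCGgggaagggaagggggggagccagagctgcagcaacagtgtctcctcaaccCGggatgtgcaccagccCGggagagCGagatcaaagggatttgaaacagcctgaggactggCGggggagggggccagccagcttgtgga
Chat: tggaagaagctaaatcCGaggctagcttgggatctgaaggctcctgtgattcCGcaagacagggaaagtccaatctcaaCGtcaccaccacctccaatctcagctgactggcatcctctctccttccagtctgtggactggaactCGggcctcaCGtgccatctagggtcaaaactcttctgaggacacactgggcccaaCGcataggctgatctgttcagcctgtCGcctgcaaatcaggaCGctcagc
Slc5a7: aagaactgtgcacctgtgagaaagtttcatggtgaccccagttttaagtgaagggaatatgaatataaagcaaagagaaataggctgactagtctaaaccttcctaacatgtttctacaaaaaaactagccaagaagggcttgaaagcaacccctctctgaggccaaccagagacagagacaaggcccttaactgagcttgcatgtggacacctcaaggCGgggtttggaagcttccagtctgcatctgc
The runs of capitals in Isl1 place it above 96.0% of all promoters by CpG count, Lhx4 above 70.6%, Chat above 57.0% and Slc5a7 above 7.86%.

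Short motifs were searched in the same windows on both strands. CATCTG, a neuronal E-box, was in the windows of Slc5a7 and the first Lhx3 start, and in 14.4% of all promoters. CAGCTG, another E-box, was in Isl1 and Chat and in 13.0% of all promoters. The homeodomain letters TAATTG were in Mnx1 (7.17% of all) and TAATTA in none of the 10 windows (4.84% of all). The Onecut-like letters ATCAAT and ATCGAT were in none (6.72% and 0.728% of all), and TATAAA was in Slc5a7 and the second Lhx3 start (12.4% of all). These are matches of letters only. The start of Slc18a3 lies 1059 bases downstream of the start of Chat on the same strand, within the transcribed span of Chat.

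In wild-type ESCs the 8 genes were close to 0. Their median was 0.0798 FPKM in E14 ESCs, with none at 1 FPKM and 2 listed at 0, and 0.0311 FPKM in CJ7 ESCs, with none at 1 FPKM and 4 listed at 0. By day 5 of E14 differentiation the median was 9.76 FPKM and 7 of the 8 were at 1 FPKM or more. All 8 were at least 2-fold higher at day 5 than in E14 ESCs, a class that held 18.3% of the 21563 genes compared. The median log2 ratio was 6.02 over the members and -0.20 over all genes. All 8 were also higher than in CJ7 ESCs, with medians of 6.20 and -0.10, and the share of all genes was not computed there.

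The LIM homeodomain genes set the upper end of the wild-type day 5 levels. Lhx3 (ENSMUSG00000026934, chr2:26055732-26063769 of NCBI build 37, minus strand) was at 0.101 FPKM in E14 ESCs and 25.8 FPKM at day 5, a log2 ratio of 7.01. Isl1 (ENSMUSG00000042258, chr13:117088478-117099896, minus strand) was at 0.220 and 18.1 FPKM, a log2 ratio of 5.83. Isl1 marks newborn motor neurons, while Lhx3 persists in the medial column that supplies axial muscle. Their paralogues were lower at day 5. Isl2 (ENSMUSG00000032318, chr9:55386479-55393987, plus strand), which follows Isl1 in postmitotic cells, was at 9.17 FPKM, and Lhx4 (ENSMUSG00000026468, chr1:157548827-157589157, minus strand), which overlaps Lhx3 in function, at 9.41 FPKM. Both were listed at 0 in E14 and CJ7 ESCs.

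Mnx1 and Onecut1 lay within the same range. Mnx1 (ENSMUSG00000001566, chr5:29799578-29805059, minus strand) was at 0.127 FPKM in E14 ESCs and 16.7 FPKM at day 5. Onecut1 (ENSMUSG00000043013, chr9:74709728-74737591, plus strand), an early postmitotic factor that acts on Isl1 in motor neurons, was at 0.226 and 10.1 FPKM. The Onecut1 value is uncertain, since 479 of its 2116 exonic bases also belong to Gm16551 on the same strand, which was at 0.0840 FPKM in E14 ESCs and 32.4 FPKM at day 5.

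The cholinergic genes were unequal. Chat (ENSMUSG00000021919, chr14:33221389-33279095, minus strand) was at 0.0490 FPKM in E14 ESCs and 7.61 FPKM at day 5, a log2 ratio of 5.69. Slc5a7 (ENSMUSG00000023945, chr17:54412919-54438359, minus strand), the high-affinity choline transporter, was at 0.0582 and 0.312 FPKM, a log2 ratio of 1.38, and was the only one of the 8 below 1 FPKM at day 5. Gm2990, a noncoding gene on the opposite strand that overlaps Chat in position but shares 0 exonic bases with it, was listed at 0 in E14 ESCs and at 10.7 FPKM at day 5. Whether the libraries kept strand is not given in the sources used here, so reads in the overlap cannot be assigned to one strand.

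From high to low, the E14 day 5 levels were those of Lhx3, Isl1, Mnx1, Onecut1, Lhx4, Isl2, Chat and Slc5a7. With 1 library, no neighbours in this order can be separated by their spread.

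**Figure D1:**
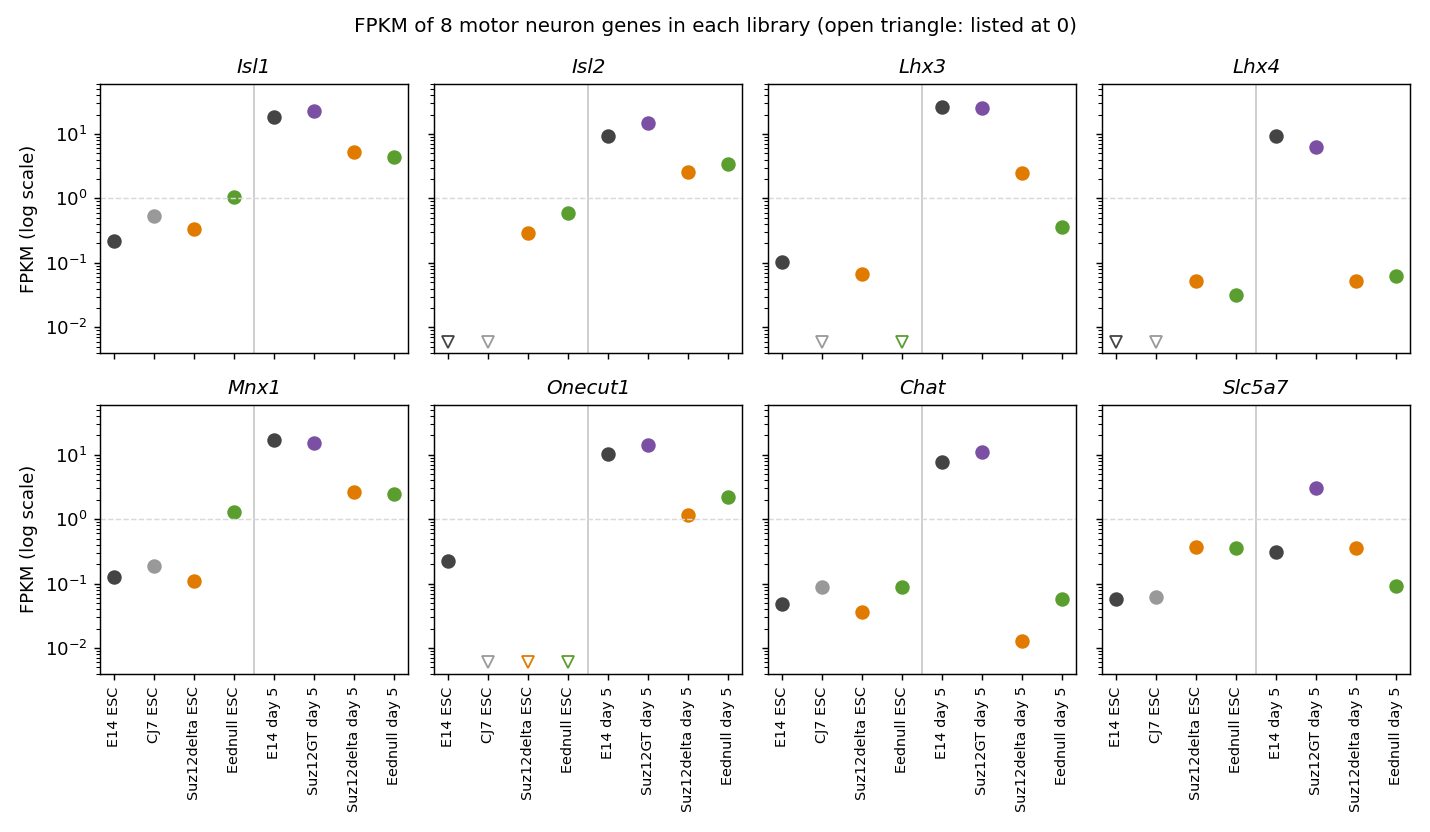
FPKM (log axis) of the 8 measured genes in each of the 8 libraries, ESCs left of the grey line and day 5 right of it. Each point is 1 library, open triangles are values listed at 0 and the dashed line is 1 FPKM. Isl1, Isl2, Mnx1 and Onecut1 sit above 1 FPKM in all 4 day 5 libraries, whereas Lhx4 and Chat do so in E14 and Suz12GT and lie below 0.1 FPKM in Suz12delta and Eednull.

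The Suz12GT library at day 5 carried these genes at levels near those of E14. The median of the 8 was 14.5 FPKM, and all 8 were at 1 FPKM or more. One of the 8, Slc5a7, was at least 2-fold higher than in E14, beside 16.8% of the 20840 genes compared, and none was at least 2-fold lower, beside 4.40%. The median log2 ratio was 0.41 over the members and 0.13 over all genes.

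Isl1 was at 22.8 FPKM in Suz12GT, 126% of E14, and Isl2 at 14.6 FPKM, 159%. Lhx3 was at 25.3 FPKM (98.0%) and Mnx1 at 15.4 FPKM (92.4%), while Lhx4, at 6.34 FPKM (67.4%), had the lowest share of the 8. Onecut1 was at 14.3 FPKM (141%) and Chat at 10.8 FPKM (143%). Leaving out Slc5a7, these log2 ratios ran from -0.56 to 0.67. For scale, the median size of the log2 ratio between CJ7 and E14 ESCs, both wild type, was 0.57 over all genes compared.

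Slc5a7 stood out from the other 7, at 3.03 FPKM in Suz12GT against 0.312 FPKM in E14, a log2 ratio of 2.92 and 9.70-fold as a ratio of FPKM. Of 11 further cholinergic genes compared, 3 were at least 2-fold higher, namely Ache (1.77 in E14 and 8.97 FPKM in Suz12GT), Prima1 (1.07 and 4.95 FPKM) and Chrm2 (listed at 0 and 0.207 FPKM), and none was lower, a share to be read beside the 16.8% of all genes. Ache encodes acetylcholinesterase and Prima1 its membrane anchor in neurons. Of 10 pan-neuronal genes compared, 4 were at least 2-fold higher (Snap25, Nefl, Nefm and Stmn2), beside 16.8%, and none lower, beside 4.40%. Nefl (neurofilament light chain) was at 106 and 261 FPKM.

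Progenitor genes were mixed in the same library. Of 8 motor neuron progenitor genes, 3 were at least 2-fold lower in Suz12GT than in E14, beside 4.40% of all genes. None was higher, beside 16.8%, and the median log2 ratio was -0.68. Those 3 were Olig2 (22.1 and 10.5 FPKM), Neurog2, the proneural factor (20.7 and 7.89 FPKM), and Pax6 (21.9 and 8.18 FPKM). Neurod4 was at 24.1 and 15.2 FPKM. Nkx6-2 (1.43 and 2.42 FPKM), Nkx2-2 (4.46 and 5.05 FPKM) and Nkx6-1 (13.9 and 13.8 FPKM), named after their values were seen, were not lower by 2-fold. Of 20 other genes expressed in motor neurons, 9 were higher, beside 16.8%, and 0 lower, beside 4.40%. Among those, chosen after their values were seen, were the visceral and branchial motor neuron factors Phox2a (1.58 and 7.69 FPKM) and Tbx20 (0.20 and 2.52 FPKM). Whether they share cells with Isl1 cannot be read from bulk RNA.

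In the Suz12delta library at day 5, 7 of the 8 genes were at least 2-fold lower than in E14, beside 9.52% of the 22069 genes compared, and none was higher, beside 26.6%. The median log2 ratio was -2.83 over the members and 0.26 over all genes. In Eednull, 8 of 8 were at least 2-fold lower, beside 11.3% of 21442 genes, and none was higher, beside 21.6%, with medians of -2.43 and 0.08. Both comparisons share the E14 day 5 library, so they are not independent of each other. The median level of the 8 was 1.83 FPKM in Suz12delta and 1.29 FPKM in Eednull, against 9.76 FPKM in E14, and none was listed at 0.

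The shortfall was unequal between genes. Slc5a7 is taken last, since it was already low in E14. Of the other 7, the Islet genes kept the most in both lines. Isl1 was at 5.32 FPKM in Suz12delta and 4.43 FPKM in Eednull, which is 29.4% and 24.5% of E14. Isl2 was at 2.57 and 3.37 FPKM, 28.0% and 36.7%. These levels were above 1 FPKM in both lines.

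Mnx1 and Onecut1 came next. Mnx1 was at 2.63 FPKM in Suz12delta and 2.44 FPKM in Eednull, 15.8% and 14.6% of E14. Onecut1 was at 1.15 and 2.22 FPKM, 11.3% and 21.9%, while the overlapping Gm16551 was at 0.754 and 1.99 FPKM.

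Of the LIM partners of the Islet proteins, Lhx4 was far lower in both lines, and Lhx3 in Eednull only. In Suz12delta, Lhx3 was close to Onecut1, which kept 11.3%. Lhx3 was at 2.52 FPKM in Suz12delta, 9.76% of E14, and at 0.356 FPKM in Eednull, 1.38%. It was the member on which the 2 lines differed most as a ratio. Lhx4 was at 0.0524 and 0.0628 FPKM, 0.557% and 0.667% of E14, levels no higher than 0.1 FPKM.

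Chat had the lowest FPKM of the 8 in both lines, while by share of E14 Lhx4 was lower in Eednull (0.667%). Chat was at 0.0127 FPKM in Suz12delta and 0.0583 FPKM in Eednull, 0.167% and 0.766% of E14. In ESCs, Chat was at 0.0490 FPKM in E14 and 0.0900 FPKM in CJ7. The Suz12delta value was below both, and the Eednull value lay between them. Gm2990 on the opposite strand was at 0.0831 and 0.0695 FPKM. Slc5a7 was at 0.360 FPKM in Suz12delta, 115% of E14, and 0.0925 FPKM in Eednull, 29.6%, but with E14 itself at 0.312 FPKM all 3 values are low. With a pseudocount of 1, Slc5a7 was no longer 2-fold lower in Eednull, which left 7 of 8.

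**Figure D2:**
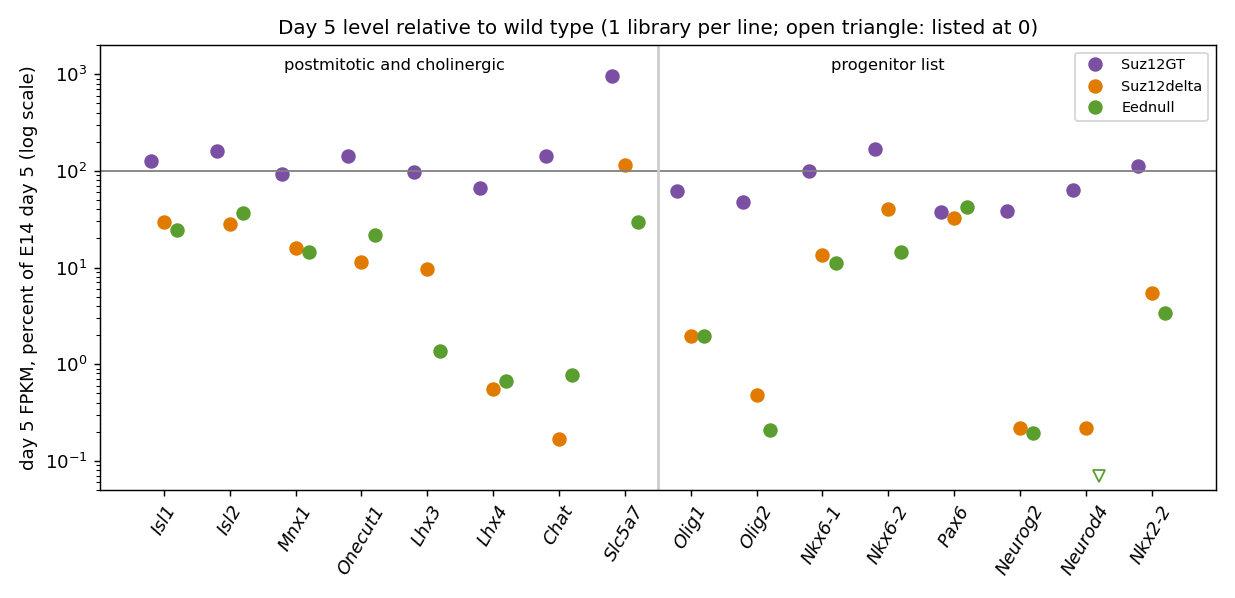
Day 5 FPKM of the 8 motor neuron genes (left) and 8 progenitor genes (right) in Suz12GT, Suz12delta and Eednull as percent of the E14 day 5 library (log axis, grey line at 100). Each point is 1 library, and the open triangle is Neurod4, listed at 0 in Eednull. Leaving out Slc5a7 (115% in Suz12delta and 29.6% in Eednull), Suz12delta and Eednull descend from 24.5% to 36.7% for Isl1 and Isl2 to below 1% for Lhx4 and Chat, while Suz12GT stays between 67.4% and 159% except for Slc5a7 at 970%.

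Set against Isl1 within the same library, which removes any common scale between libraries, the inequality was plain. Lhx3 was 1.43 times Isl1 in E14 and 1.11 times in Suz12GT, but 0.473 times in Suz12delta and 0.0804 times in Eednull. Lhx4 was 0.521 and 0.278 times Isl1 in E14 and Suz12GT, and 0.00985 and 0.0142 times in Suz12delta and Eednull. Chat was 0.421 and 0.476 times, against 0.00239 and 0.0132 times. By contrast Isl2 held its ratio to Isl1, at 0.508 in E14, 0.641 in Suz12GT, 0.483 in Suz12delta and 0.759 in Eednull. Mnx1 was 0.922, 0.676, 0.495 and 0.549 times Isl1 in the same order, and Onecut1 0.559, 0.627, 0.215 and 0.50 times.

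The LIM cofactors went both ways, with counts near the shares over all genes in Suz12delta and Eednull. Ldb1, the bridge of the Isl1 and Lhx3 complex, was at 91.4 FPKM in E14 at day 5, 88.8 in Suz12GT, 71.6 in Suz12delta and 75.2 in Eednull. Ssbp3, which stabilises Ldb1, was at 102, 100.3, 60.7 and 52.0 FPKM. Lmo4, a LIM-only protein that competes for Ldb1, was at 46.2, 40.1, 18.2 and 42.3 FPKM, and Ssbp2 at 11.1, 11.6, 14.9 and 15.0 FPKM. Of the 10 cofactor genes, 3 were higher in Suz12GT (Ldb2, Lmo2 and Lmo3), beside 16.8% of all genes, and none lower, beside 4.40%. In Suz12delta, 3 were higher (Ldb2, Lmo2 and Ssbp4), beside 26.6%, and 1 lower (Lmo4), beside 9.52%. In Eednull the same 3 were higher, beside 21.6%, and 2 lower (Lmo1 and Lmo3), beside 11.3%. The median log2 ratios were 0.35, -0.08 and -0.15 in the 3 lines. Of the 3 genes higher in both Suz12delta and Eednull, Ldb2 and Lmo2 were below 1 FPKM in E14. Ldb2, a relative of Ldb1, was at 0.0853 FPKM in E14, 1.68 in Suz12delta and 2.26 in Eednull. Lmo2 was at 0.420 FPKM, 3.21 and 2.82. As log2 ratios, the differences of Ldb2 and Lmo2 were larger than those of Isl1 or Isl2. Ssbp4 was at 3.71 FPKM in E14, with log2 ratios of 1.41 in Suz12delta and 1.38 in Eednull.

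The genes that precede Isl1 and Lhx3 in the lineage had lower medians than the members, but were unequal. All 8 progenitor genes were at least 2-fold lower than in E14 in both Suz12delta and Eednull, beside 9.52% and 11.3% of all genes. Their median log2 ratios were -4.41 and -4.64. Olig2 was at 0.107 FPKM in Suz12delta and 0.0455 FPKM in Eednull, 0.484% and 0.206% of E14. Neurog2 was at 0.0450 and 0.0398 FPKM, 0.218% and 0.192%. Thus Isl1 and Isl2 were present at 24.5% to 36.7% of the wild-type level in libraries where Olig2 and Neurog2 were under 1% of it. Pax6, which is used in other neural and endocrine cells, kept 33.0% and 42.6%. Nkx6-1, chosen after its values were seen and active also in pancreas, kept 13.6% and 11.2%. Nkx6-2, at 1.43 FPKM in E14, kept 40.5% and 14.5%, so Pax6 and Nkx6-2 kept more than Isl1 in Suz12delta.

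Genes of neurons in general were low in these libraries. All 10 pan-neuronal genes compared were at least 2-fold lower in both lines, beside 9.52% and 11.3% of all genes, with medians of -4.65 and -4.79. Elavl4, an RNA-binding protein of neurons, was at 102 FPKM in E14, 0.70 in Suz12delta and 0.778 in Eednull. Gap43, a growth cone protein, was at 88.6, 4.88 and 4.52 FPKM, and Nefl at 106, 2.64 and 2.29 FPKM. Stmn2, a neuronal tubulin regulator, was at 101, 4.92 and 4.59 FPKM at day 5 but also at 75.7 FPKM in E14 ESCs, so it does not separate neurons from ESCs here.

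The remaining motor neuron and cholinergic genes were mixed. Of 20 other motor neuron genes, 11 were lower in Suz12delta, beside 9.52% of all genes, and 3 higher, beside 26.6%. In Eednull, 10 were lower, beside 11.3%, and 3 higher, beside 21.6%. The higher ones were Aldh1a2, Etv4 and Tbx20 in both. Ret, the receptor for glial-derived neurotrophic factor, was at 13.9 FPKM in E14, 2.82 in Suz12delta and 0.982 in Eednull. Slit2, a secreted guidance cue, was at 25.6, 6.60 and 6.02 FPKM, whereas Agrn (agrin), which many tissues make, was at 54.8, 61.8 and 72.2 FPKM. Aldh1a2, the retinoic acid-synthesising enzyme of limb-level motor neurons and of mesoderm, was higher, at 0.935, 29.1 and 34.3 FPKM. Of the further cholinergic genes, 7 of 10 compared were lower in Suz12delta, beside 9.52%, and 1 higher (Slc44a1), beside 26.6%. In Eednull, 7 of 12 were lower, beside 11.3%, and 3 higher (Slc44a1, Colq and Chrm2), beside 21.6%.

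Nicotinic receptor subunits kept more than Chat did. Chrna3 was at 18.1 FPKM in E14, 5.96 in Suz12delta and 5.38 in Eednull, and Chrna4 at 16.7, 4.30 and 3.40 FPKM. The choline transporter-like gene Slc44a1, which is widely expressed, was higher in both lines, at 5.64, 22.8 and 22.9 FPKM. Slc18a2, the vesicular monoamine transporter and a relative of Slc18a3, was at 8.82, 2.93 and 1.87 FPKM, a smaller shortfall than that of Chat.

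Other cells that use Isl1, Mnx1 or Onecut1 had markers in the same libraries. Of the endoderm list, 10 of 10 genes compared were at least 2-fold higher than E14 in Suz12delta, 10 of 10 in Eednull and 11 of 12 in Suz12GT, beside 26.6%, 21.6% and 16.8% of all genes, with a summed level of 5.57 FPKM in E14, 36.9 in Suz12GT, 63.0 in Suz12delta and 59.2 in Eednull. Foxa2 was at 2.96, 11.8, 12.0 and 13.5 FPKM and Gata4 was listed at 0 in E14 and at 11.6, 10.3 and 12.1 FPKM in the mutants. Foxa1 was at 0.711, 4.92, 7.42 and 8.17 FPKM. Pdx1, which defines pancreas, was at most 0.215 FPKM in any day 5 library.

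The highest cardiac marker in any day 5 library was Actc1, at 3.85 FPKM in Suz12delta. Hand2 (3.59 FPKM) and Myl7 (3.22 FPKM) followed in the same library, where Isl2 was at 2.57 FPKM and Mnx1 at 2.63 FPKM. The 9 cardiac markers summed to 0.843, 4.51, 14.9 and 8.01 FPKM in E14, Suz12GT, Suz12delta and Eednull. In Suz12delta, 9 of 9 compared were at least 2-fold higher than E14, beside 26.6% of all genes, and in Eednull 8 of 9, beside 21.6%. In Suz12GT, 4 of 5 were higher (Nkx2-5, Hand2, Tbx5 and Actc1), beside 16.8%, and 1 was lower (Myl7), beside 4.40%. Nkx2-5, a cardiac factor that shares progenitors with Isl1, was at 0.0177, 1.19, 1.42 and 1.60 FPKM, and Tnnt2, a sarcomere gene, at no more than 0.601 FPKM. Afp, a product of liver and visceral endoderm, was listed at 0 in E14 and at 0.155, 7.15 and 2.72 FPKM. The part of these cells in the remaining Isl1, Mnx1 and Onecut1 was not tested.

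Cells that use Lhx3 or Lhx4 without being motor neurons had little signal. The V2 interneuron genes Vsx1 and Sox14 were at no more than 0.188 FPKM in any day 5 library. The 7 pituitary and retina genes summed to between 0.873 and 1.09 FPKM in the day 5 libraries. Of the spinal interneuron list, 10 genes were higher and 2 lower of 18 compared in Suz12delta, beside 26.6% and 9.52% of all genes, and 11 and 2 of 17 in Eednull, beside 21.6% and 11.3%, Sox21 and Vsx1 being the lower ones in both. The highest were Gata3 (0.118 FPKM in E14, 17.8 in Suz12delta and 15.7 in Eednull) and Gata2 (0.131, 11.7 and 12.0 FPKM), both of which are used widely outside the nervous system. In Suz12GT, 8 of 16 were higher, beside 16.8%, and 3 lower, beside 4.40%, with Lhx2 and Lhx5 among the lower ones. Fibroblast markers, 12 genes, summed to 16.6, 36.7, 170.5 and 108 FPKM at day 5. In Suz12GT, Suz12delta and Eednull, 9, 12 and 11 of 12 compared were at least 2-fold higher than E14, beside 16.8%, 26.6% and 21.6% of all genes. Of the pluripotency markers, 6 of 7 compared were higher in Suz12GT, 7 of 8 in Suz12delta and 4 of 6 in Eednull, beside the same shares. Their median log2 ratios were 2.34, 2.92 and 1.18. Sox2, which neural progenitors share with ESCs, was the lower one in Suz12delta and Eednull.

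**Figure D3:**
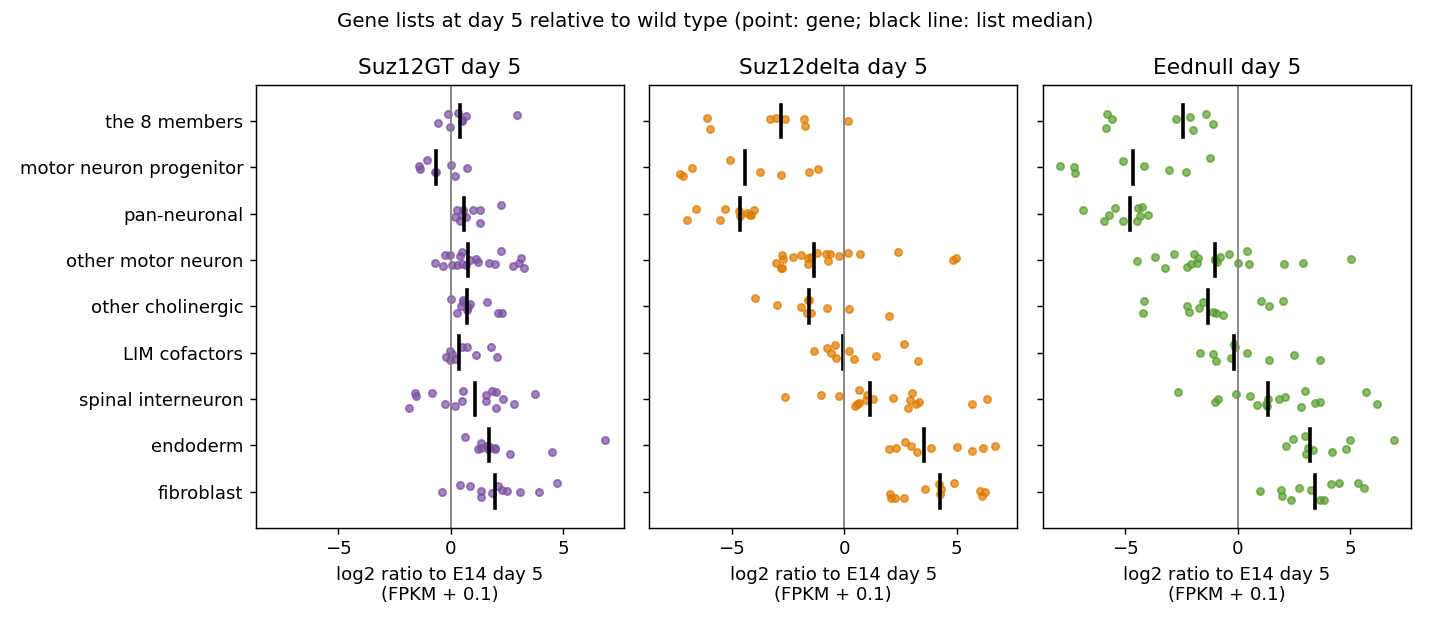
Log2 ratio to the E14 day 5 library (FPKM + 0.1) of each gene of 9 lists in Suz12GT, Suz12delta and Eednull at day 5. Points are genes, black bars are list medians, and the grey line marks equal levels. In Suz12delta and Eednull the members have medians of -2.83 and -2.43, between the progenitor and pan-neuronal lists below -4 and the endoderm and fibroblast lists above 3.

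The mutant lines carried more of some of these transcripts at day 5 than in their own ESCs. In Suz12delta, 5 of 6 members compared were at least 2-fold higher at day 5 than in ESCs, beside 26.9% of the 22681 genes compared, with median log2 ratios of 3.64 for the members and 0.43 for all genes. Isl1 was at 0.332 FPKM in Suz12delta ESCs and 16.0-fold higher at day 5, Lhx3 was at 0.0661 FPKM and 38.1-fold higher, and Mnx1 was at 0.108 FPKM and 24.3-fold higher. Isl2 was at 0.293 FPKM and 8.77-fold higher, and Onecut1 was listed at 0 in these ESCs. The sixth, Slc5a7, was at 0.373 and 0.360 FPKM. Lhx4 (0.0520 and 0.0524 FPKM) and Chat (0.0363 and 0.0127 FPKM) were below 0.1 FPKM at both stages. These ratios reuse the day 5 values of the comparison with E14.

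In Eednull, 4 of 6 members compared were at least 2-fold higher at day 5 than in ESCs, beside 18.4% of 24638 genes, and 1 was lower, beside 24.8%. Isl1 was at 1.06 FPKM in Eednull ESCs and 4.19-fold higher at day 5, and Isl2 at 0.597 FPKM and 5.64-fold higher. Lhx3 and Onecut1 were listed at 0 in these ESCs and were at 0.356 and 2.22 FPKM at day 5. Mnx1 was at 1.28 FPKM and 1.91-fold higher. Slc5a7, at 0.363 and 0.0925 FPKM, was the lower one. Chat (0.0900 and 0.0583 FPKM) and Lhx4 (0.0314 and 0.0628 FPKM) were again under 0.1 FPKM at both stages. The ESC and day 5 libraries of this line may come from different batches, and the part of batch in these ratios was not tested.

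Before differentiation, the mutant ESCs held small amounts of some members. In Suz12delta ESCs, 2 of 6 members compared were at least 2-fold higher than in E14 ESCs, beside 18.0% of 21980 genes, and 1 was lower, beside 22.8%. These were Slc5a7 (0.0582 FPKM in E14, 0.0622 in CJ7 and 0.373 in Suz12delta) and Isl2 (listed at 0 in E14 and CJ7 and at 0.293 FPKM in Suz12delta), and, lower, Onecut1 (0.226 FPKM in E14, listed at 0 in CJ7 and Suz12delta). Against CJ7, 2 were higher and 0 lower of 4 compared, with a median log2 ratio of 0.54 over the members and -0.18 over all genes. The share of all genes called against CJ7 was not computed. With fibroblast markers summing to 982 FPKM in that library, the part of feeder cells in these values was not tested.

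In Eednull ESCs, 4 of 6 were higher than in E14, beside 22.4% of 24280 genes, and 2 were lower, beside 11.9%. Mnx1 was at 1.28 FPKM against 0.127 FPKM in E14 and 0.187 FPKM in CJ7, and Isl1 at 1.06 FPKM against 0.220 and 0.531 FPKM. These were the only members at 1 FPKM or more in any ESC library. Isl2 (0.597 FPKM, listed at 0 in E14 and CJ7) and Slc5a7 (0.363 FPKM, against 0.0582 and 0.0622) were the other two. The lower pair, Lhx3 and Onecut1, were listed at 0 in Eednull and CJ7 ESCs and at 0.101 and 0.226 FPKM in E14. Against CJ7, 3 were higher and 0 lower of 4 compared, with a median log2 ratio of 1.89 over the members and 0.14 over all genes. Here too the share of all genes called against CJ7 was not computed. Endoderm markers summed to 28.2 FPKM in Eednull ESCs and to 1.63 to 6.15 FPKM in the other ESC libraries, and their part in the Isl1 and Mnx1 values was not tested.

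The wild-type ESC lines also differed for some members. Of 4 members compared between CJ7 and E14, none was at least 2-fold higher, beside 15.7% of all genes, and 2 (Lhx3 and Onecut1, both listed at 0 in CJ7) were lower, beside 14.7% of 23141 genes. Isl1 was at 0.531 FPKM in CJ7 and 0.220 FPKM in E14, a log2 ratio of 0.98, while Mnx1 had a ratio of 0.34. Of the members at 0.1 FPKM or more in the mutant ESCs, Isl1, Isl2, Mnx1 and Slc5a7 in Eednull and Isl2 and Slc5a7 in Suz12delta were above both wild-type lines.

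Genes with the most similar profile over the 8 libraries were ranked by Pearson r of log2(FPKM + 0.1) with the mean profile of the 8 members, among 18530 genes that reached 1 FPKM somewhere. This is a description over 8 libraries, and 920 genes had r of 0.9 or more. The 10 highest had r from 0.989 to 0.999: Add2, Slc10a4, Arhgap36, Lzts1, Chrna5, Tmcc2, Ecel1, Trim9, Fbxl15 and Ncald. Slc10a4, a synaptic vesicle transporter of cholinergic and aminergic neurons, was at 11.5 FPKM in E14 at day 5, 13.8 in Suz12GT, 0.790 in Suz12delta and 0.469 in Eednull. Add2, a subunit of the membrane skeleton protein adducin, was at 14.3, 20.2, 1.05 and 0.989 FPKM. Chrna5, a nicotinic receptor subunit, was at 5.10, 6.77, 1.78 and 1.27 FPKM, and Ecel1, an endopeptidase of developing motor nerves, at 17.1, 27.9, 3.07 and 2.09 FPKM. Arhgap36 was at 32.4, 24.4, 2.57 and 1.41 FPKM. Gm2990, opposite Chat, had r of 0.930.

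Set beside the promoters, the genes with the lowest share of E14 in both lines, Chat and Lhx4, had 8 and 14 CpG in the 250 bases before the start, while Isl1, with 29.4% and 24.5% kept, had 33. Isl2 kept a similar share, 28.0% and 36.7%, with 16 CpG, and Onecut1 kept 11.3% and 21.9% with 31, so the order of CpG counts was not the order of the shares.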

How the data were processed

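The authors deposited FPKM values per gene for 8 libraries, each the only library of its condition, from alignment by Bowtie 0.12.7 and TopHat 1.3.2 and quantification by Cufflinks 1.2.1 and Cuffdiff on NCBI build 37, with correction for bias and for reads that map to several places. FPKM depends on the other genes of a library, and values were used as deposited, without rescaling. Steps of single reads were sought among low values, but at most 7.34% of low genes shared the commonest ratio between libraries, so depth is unknown and no interval is given.

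Genes were matched by symbol. Coordinates are from GENCODE vM1, which held 36104 of the 36808 identifiers. From the FPKM values, log2 ratios with a pseudocount of 0.1 were computed where either library reached 0.1 FPKM, in Python 3.11.15 with NumPy 2.4.6 and pandas 2.3.3, and plots were drawn with Matplotlib 3.10.9. The calculation was tested on simulated data. No p-value is given. The members and the lists (138 genes, 136 in the table) were chosen with earlier results of these data known, and the members' counts and medians stand beside those of all genes compared. Where a symbol had 2 identifiers (Pou3f1 and Ebf1), the one with the higher mean was kept. Genes named were all members, up to 4 per list with the highest day 5 FPKM, genes making up counts of 5 or fewer, markers that define a cell type, Suz12, Eed and the 10 with the most similar profile. A few genes of the lists are not reported here by name. Others, such as those overlapping a member, were named after their values were seen.

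The alternatives were pseudocounts of 1 or 0.01, minima of 1 FPKM or none, libraries scaled to a common 75th percentile (set on the 17842 genes never at 0), CJ7 in place of E14 ESCs and, added after seeing the data, genes above 0 in both libraries. Promoter sequences are from RefSeq (GRCm38.p6), and no coordinate was converted between builds.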

Additional observations from a re-analysis of the deposited data

Results flagged for a closer look

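For a pair of genes the change from ESC to day 5 had the opposite sign in the severe mutants and in wild type, each with 1 library per condition, so the difference was not tested. Chat had a log2 ratio of day 5 to ESC of 5.69 in E14, -0.27 in Suz12delta and -0.26 in Eednull, and all 4 mutant values lay below 0.1 FPKM. Slc5a7 had a ratio of 1.38 in E14, -0.041 in Suz12delta and -1.27 in Eednull, from values between 0.0582 and 0.373 FPKM.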

How the results depend on the processing

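No paired analysis was possible because each condition had 1 library. Of 507 results recomputed under an alternative, 102 moved by more than 0.57 on the log2 scale (the median difference between the wild-type ESC lines) or, for counts, by over 1.5 times, and no value of 2-fold or more changed sign, though the median of CJ7 over E14 ESCs, at -0.34, did under 3 alternatives and the ratios of Mnx1 and Isl1 in Suz12delta over E14 ESCs under 1 each. For the 3 day 5 comparisons with E14, neither the members' median nor their counts moved in this sense. A pseudocount of 1 gave medians of 3.36 for E14 day 5 over ESC, 1.59 for Suz12delta day 5 over ESC, 0.998 for Eednull day 5 over ESC and 0.52 for Eednull over E14 ESCs, and a pseudocount of 0.01 gave 6.97, 4.22 and, for Eednull over E14 ESCs, 2.33. For Eednull day 5 over ESC, the median was 1.43 with no minimum and 1.43 over genes above 0 in both libraries, where 2 were higher, and 0 were lower with a pseudocount of 1 or a minimum of 1 FPKM. For Suz12delta over E14 ESCs, a pseudocount of 1 left 0 higher and 0 lower, genes above 0 in both left 1 higher and 0 lower, and CJ7 as wild type left 0 lower. For Eednull over E14 ESCs, 1 was higher and 0 lower with a pseudocount of 1, 1 lower with 75th percentile scaling, 2 higher and 0 lower with a minimum of 1 FPKM, and 0 lower with genes above 0 in both or with CJ7 as wild type. Its median with no minimum was 0.97. For CJ7 over E14 ESCs, 0 were lower with a pseudocount of 1, the median was -1.48 with 1 higher at 0.01, 0.47 with 1 higher and 1 lower under scaling, and 0.66 with 0 lower over genes above 0 in both. Scaling moved the median of all genes from 0.43 to 0.06 for Suz12delta day 5 over ESC and from -0.28 to 0.07 for Suz12delta over E14 ESCs. Of the 10 genes with the most similar profile, 5 were shared with a pseudocount of 1. The ESC counts rest on values near or below 0.1 FPKM, where depth, which is unknown, limits what can be read.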

Other observations

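Progenitor genes had a different course in the Eednull line from that of Isl1 and Isl2. Olig2 was at 5.19 FPKM in Eednull ESCs and 0.0455 FPKM at day 5, and Olig1 at 3.29 and 0.189 FPKM, while E14 went from 0.0436 to 22.1 FPKM for Olig2. In Suz12delta, Olig2 was at 1.12 FPKM in ESCs and 0.107 FPKM at day 5. Of 7 progenitor genes compared in Eednull, 4 (Olig1, Olig2, Nkx6-2 and Nkx2-2) were at least 2-fold lower at day 5 than in ESCs, beside 24.8% of all genes. In the same comparison 1 (Nkx6-1) was higher, beside 18.4%. The median log2 ratio was -2.34, beside -0.08 over all genes. These genes were picked after their values were seen, and each value is 1 library.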
